A study of Mus musculus with 8 samples.

Results

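The 9 genes described here are the natriuretic peptide genes Nppa and Nppb, their receptors Npr1 and Npr2, the activating protease Corin, and the striated muscle genes Ankrd1, Ankrd23, Xirp1 and Xirp2. They were taken by gene symbol from the 54752 genes of the deposited table, and all 9 had a row. Of these, 7 passed the filter on low counts. Ankrd23 and Xirp1 held 1 and 0 counts in total over the 8 libraries and were not tested.

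Heart muscle cells make natriuretic peptides as prohormones and release them when the wall is stretched. Corin, a protease on the cardiomyocyte surface, cuts the atrial prohormone into its active form, and the peptides then lower blood pressure and salt load through receptors that make cyclic GMP. Nppa is active in embryonic ventricle, fades there after birth while atria keep it, and returns under strain, so it is widely read as a marker of an immature or stressed ventricle. Ankrd1 and Ankrd23 belong to a small family of ankyrin repeat proteins that bind titin in the I-band and move to the nucleus under stretch, and the Xin repeat proteins Xirp1 and Xirp2 bind actin at the intercalated disc.

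The cells were cardiomyocytes isolated on a Langendorff perfusion apparatus from hearts of mice with floxed alleles of Carm1 (Carm1fl/fl), an arginine methyltransferase. The KO groups had received AAV9-Cre after birth and the controls AAV9-GFP, so both carried floxed alleles and a virus, and no group had Cre without floxed alleles. The hearts were mosaics of infected and uninfected cells, no sorting is described, and the promoter that drives Cre is not given in the sources used here. Messenger RNA was sequenced from 4 groups of 2 libraries, control and KO labelled 1w and 3w, in a study of how Carm1 bears on the maturation of heart muscle, and injection is labelled as postnatal day 1 or 2 for 1w and day 3 or 4 for 3w. These labels are written below as 1 week and 3 weeks, and whether they count from birth or from injection is not given in the sources used here. The labelled injection day is the same for same-numbered control and KO libraries of an age and later at 3 weeks than at 1 week, so that it runs with age in every comparison of ages.

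Libraries held 20818285 to 53671626 gene counts, of which 40.7 to 47.8% were mitochondrially encoded. Carm1 was at 39.1 to 40.5 CPM (counts normalised to the scaled library size) in the 4 control libraries and at 17.3 to 22.4 CPM in the 4 KO libraries. Y-linked counts were 0 to 3 in control at 1 week and KO at 3 weeks and 4282 to 6765 in control at 3 weeks and KO at 1 week. A KO or age effect within 1 pair of groups, and the difference between the effects at the 2 ages, therefore cannot be told apart from whatever goes with Y-linked transcripts, whereas the mean of the KO effects over both ages weighs it equally on each side. Of the 10 markers of ventricular cardiomyocytes 8 were abundant in all libraries, summing to 37245 to 79358 CPM, and Actc1 and Pln were listed at 0.

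What the table could count differed between the 9 genes. In the GENCODE M21 annotation of GRCm38 (mm10), 681 protein-coding genes have all their exon bases inside the span of another gene without sharing a base with its exons, and 676 of them (99.3%) had 0 counts in all 8 libraries. The share was 24.5% of the 14132 genes whose exons touch no other gene. Xirp1, on chromosome 9 from 120013755 to 120023598 (minus strand), lies wholly inside the span of the chemokine receptor gene Cx3cr1 and shares no exon base with it. Of the exon bases of Ankrd23, on chromosome 1 from 36530188 to 36536883 (minus strand), only 0.185% lie outside other genes, and 78.2% are shared with exons of Gm42417, on the same strand. Their 0 and 1 counts therefore say nothing on whether Xirp1 and Ankrd23 were expressed. A count of 0 allows up to 3 counts, or 0.0674 to 0.126 CPM depending on the library, for counting error only and for assignable reads only.

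**Figure D1:**
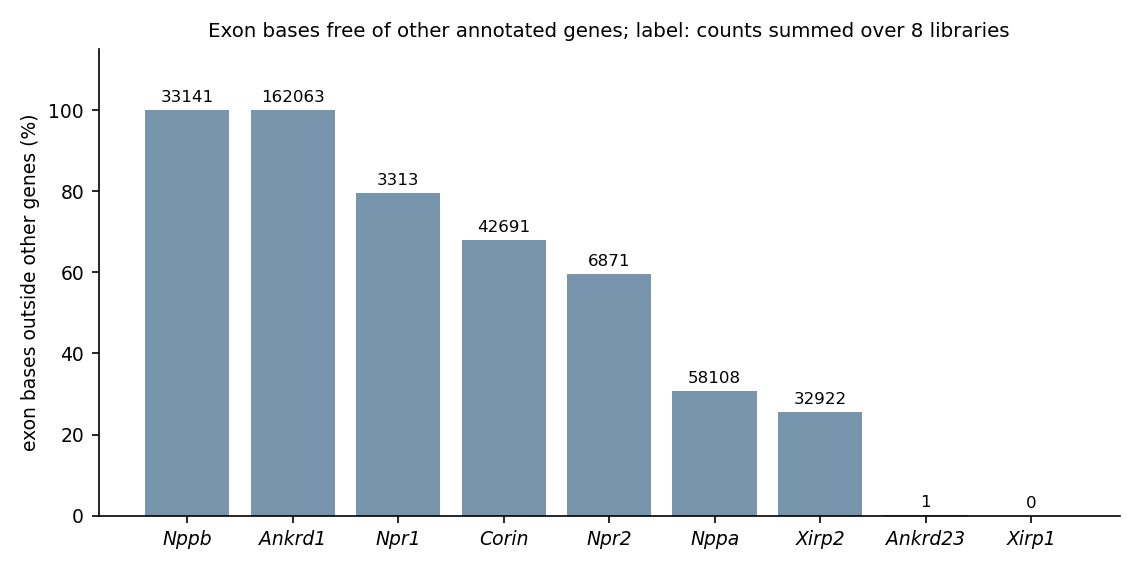
Percent of each gene's exon bases that lie outside every other annotated gene, with the counts summed over the 8 libraries above each bar. Nppb and Ankrd1 are free over 100% of their exons, Nppa over 30.8% and Xirp2 over 25.6%, while Xirp1 and Ankrd23 have almost no free base and 0 and 1 counts.

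Among the measured genes, Nppb and Ankrd1 were free of other genes over their whole exons. Nppa kept 30.8% of its exon bases, the antisense gene Gm13054 sharing 61.5% of them, and Xirp2 kept 25.6%, Npr2 59.6%, Corin 68% and Npr1 79.5%. Whether the strand of reads was used is not given in the sources used here. Of the 779 protein-coding genes whose exon bases all lie inside genes of the opposite strand only, 771 (99%) had 0 counts. The counting thus did not keep such genes apart by strand, and reads of Nppa and of Gm13054 may not be separable. Gm13054 itself held 1 to 15 counts a library, against 819 to 16714 for Nppa. Its counts need not include reads in the bases it shares with Nppa, so they do not give the level of antisense RNA there. The same layout marks the genes listed at 0 among the pathway and marker genes: Pde2a keeps 0.13% of its exon bases and Srf, Acta1, Timp1, Actc1, Pln and Tcf21 keep none. Differences between groups compare the same countable part of a gene in every library, but levels of different genes are comparable only approximately.

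Nppa (ENSMUSG00000041616, chromosome 4, 148000722 to 148002079, plus strand) encodes the precursor of atrial natriuretic peptide. It stood at 34.4 and 34.4 CPM in control at 1 week, at 189 and 189 CPM in KO at 1 week, at 104 and 101 CPM in control at 3 weeks, and at 590.1 and 577 CPM in KO at 3 weeks. The groups did not overlap anywhere: each KO library was above both controls of its age, and KO at 1 week was also above control at 3 weeks. As log2 fold changes ± SE from edgeR's quasi-likelihood test, the KO effect was 2.46 ± 0.038 at 1 week (adjusted p = 6.5e-53) and 2.51 ± 0.034 at 3 weeks (adjusted p = 2.2e-56), a 5.5-fold and a 5.69-fold rise. The effect at 3 weeks less that at 1 week was 0.05 ± 0.051 and did not pass (adjusted p = 0.485), although with library sizes taken as total counts it was 0.20 (adjusted p = 0.00356), and 0.27 when scaled to cardiomyocyte markers (adjusted p = 0.00147). Averaged over both ages the rise of 2.48 ± 0.026 was the 87th highest of the 14665 genes tested. Between 1 and 3 weeks Nppa rose 2.98-fold in control and 3.09-fold in KO. Under the alternatives run, this rise was 0.64 to 1.62 in control and 0.91 to 1.66 in KO on the log2 scale.

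Nppb (ENSMUSG00000029019, chromosome 4, 147985788 to 147987205, plus strand), which encodes brain natriuretic peptide and lies next to Nppa, changed less and with a different time course. Its level was 102 and 101 CPM in control at 1 week, 131 and 136 CPM in KO at 1 week, 77.9 and 71.4 CPM in control at 3 weeks, and 190.5 and 187 CPM in KO at 3 weeks. KO libraries were above the controls of their age throughout, and control at 3 weeks was the lowest group. The KO effect was 0.40 ± 0.038 at 1 week (adjusted p = 9.6e-14) and 1.33 ± 0.038 at 3 weeks (adjusted p = 1.4e-38). In contrast to Nppa, the effect grew with age, by 0.94 ± 0.054 on the log2 scale (adjusted p = 7.2e-23). In control Nppb fell between 1 and 3 weeks (-0.44 ± 0.040), and in KO it rose (0.50 ± 0.036). That rise was 0.07 (adjusted p = 0.106) on total counts and -0.21 when scaled to cardiomyocyte markers.

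**Figure D2:**
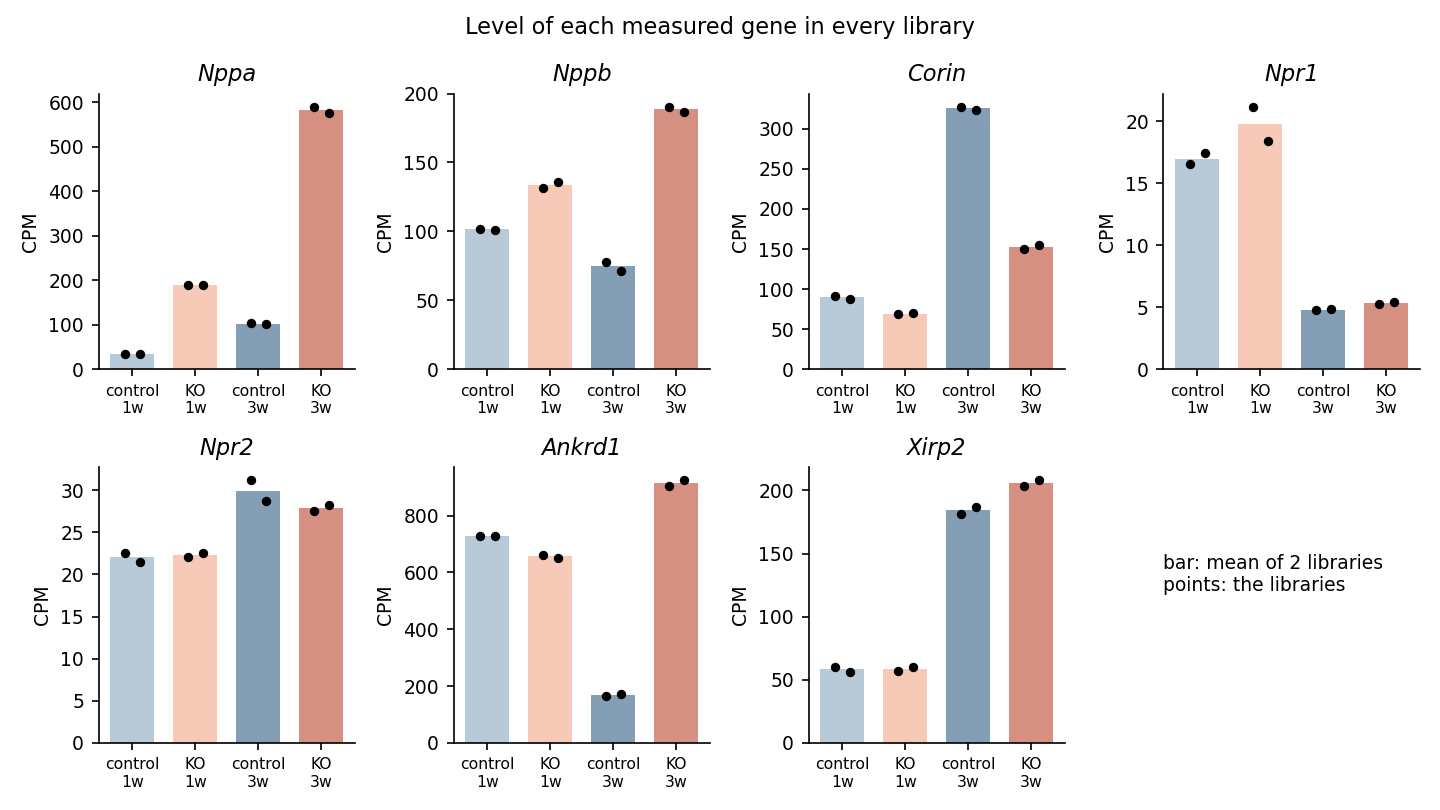
CPM of the 7 measured genes in each library, with points for the libraries and bars for the mean of the 2 libraries of a group, on linear axes from 0. Nppa is highest in KO at 3 weeks (577 and 590.1 CPM), Corin in control at 3 weeks (323 and 328 CPM), and Ankrd1 is low only in control at 3 weeks (165 and 172 CPM).

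In KO the protease gene moved against its substrate. Corin (ENSMUSG00000005220, chromosome 5, 72300025 to 72504473, minus strand) was at 91.5 and 88.3 CPM in control at 1 week and at 68.8 and 69.6 CPM in KO. At 3 weeks it was at 328 and 323 CPM in control and at 150.5 and 155 CPM in KO, so that all KO libraries were below the controls of their age. It fell in KO by 0.38 ± 0.037 at 1 week (adjusted p = 4.1e-13) and by 1.09 ± 0.034 at 3 weeks (adjusted p = 7.0e-37). The fall was larger at 3 weeks, with a difference of -0.72 ± 0.050 (adjusted p = 5.2e-19). By fold change at 3 weeks it ranked 290th from the lowest of the 14665 genes. Corin rose with age in both, 3.63-fold in control and 2.2-fold in KO. Under the alternatives run, its rise was 0.92 to 1.90 in control and 0.43 to 1.18 in KO on the log2 scale.

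Ratios of counts within a library do not depend on how libraries are scaled. Corin had 2.56 to 3.19 counts for each count of Nppa in the 4 control libraries and 0.255 to 0.368 in the 4 KO libraries, at both ages. The ratio of Nppa to Nppb was 0.337 and 0.341 in control at 1 week and 1.33 and 1.42 in control at 3 weeks. KO at 1 week, at 1.39 and 1.44, overlapped control at 3 weeks, and KO at 3 weeks reached 3.09 and 3.1. Ankrd1 had 7.14 and 7.21 counts for each of Nppb in control at 1 week and 2.12 and 2.42 in control at 3 weeks, whereas KO lay at 4.8 and 5.05 at 1 week and 4.75 and 4.95 at 3 weeks. Control thus moved with age in this last ratio and the KO groups overlapped each other.

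**Figure D3:**
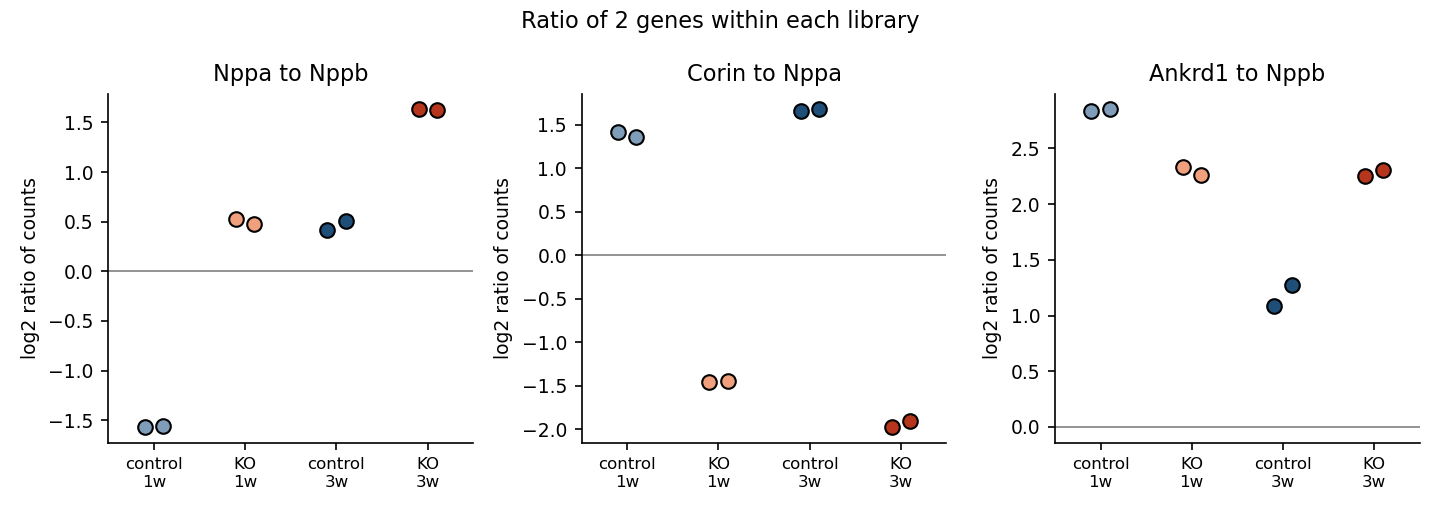
Log2 ratio of the counts of 2 genes within each library (points, 2 per group), with a line at equal counts. Corin exceeds Nppa in all control libraries (log2 ratio 1.36 to 1.67) and is below it in all KO libraries (-1.97 to -1.44), and the Nppa to Nppb ratio of KO at 1 week overlaps that of control at 3 weeks.

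Of the receptor genes, Npr1 changed with age far more than with KO. Npr1 (ENSMUSG00000027931, chromosome 3, 90450591 to 90465866, minus strand) encodes the guanylyl cyclase receptor of both cardiac peptides. It was at 16.5 and 17.4 CPM in control at 1 week, 21.2 and 18.4 CPM in KO at 1 week, 4.77 and 4.84 CPM in control at 3 weeks, and 5.3 and 5.44 CPM in KO at 3 weeks. The age groups were far apart, and KO was slightly above control at both ages. Npr1 fell with age by 1.83 ± 0.096 in control and by 1.89 ± 0.093 in KO. The KO effect at 1 week was 0.22 ± 0.074 (adjusted p = 0.0121), but without KO replicate 1 at 1 week it was 0.11 (adjusted p = 0.39), without control replicate 1 at 1 week 0.19 (adjusted p = 0.0794), and DESeq2 gave an adjusted p of 0.183. At 3 weeks it was 0.16 ± 0.12 (adjusted p = 0.279), and it passed on total counts (0.41, adjusted p = 0.0044) and on cardiomyocyte markers (0.49).

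Npr2 (ENSMUSG00000028469, chromosome 4, 43631935 to 43651244, plus strand) encodes the receptor of C-type natriuretic peptide. Its libraries lay at 22.5 and 21.5 CPM in control at 1 week, 22 and 22.6 CPM in KO at 1 week, 31.2 and 28.7 CPM in control at 3 weeks, and 27.5 and 28.3 CPM in KO at 3 weeks. KO and control overlapped at 1 week and nearly touched at 3 weeks. Neither KO effect passed, at 0.02 ± 0.062 (adjusted p = 0.801) and -0.11 ± 0.059 (adjusted p = 0.122), and the 3-week value turns to 0.14 on total counts and 0.22 on cardiomyocyte markers (adjusted p = 0.00331), and to -0.19 without control replicate 2 at 3 weeks (adjusted p = 0.0161). Its rise with age (0.46 ± 0.061 in control, 0.32 ± 0.060 in KO) likewise turns into -0.12 and -0.10 on total counts and -0.48 and -0.39 on cardiomyocyte markers.

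The third receptor of the family, Npr3, clears the peptides from the circulation and from tissue. It was higher in KO at 1 week (0.52 ± 0.084) and lower at 3 weeks (-0.59 ± 0.075), a difference of -1.12 ± 0.11 between the ages (adjusted p = 1.1e-12). The other peptide of the family, Nppc, had 0 to 8 counts a library and the receptor ligand Ostn 0 to 1, and neither was tested.

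The stretch-response gene Ankrd1 (ENSMUSG00000024803, chromosome 19, 36111961 to 36120099, minus strand) had the largest change of the set with age in control. It stood at 727 and 729 CPM in control at 1 week and at 662 and 652 CPM in KO at 1 week. At 3 weeks control had dropped to 165 and 172 CPM, while KO was at 905 and 925 CPM. KO at 1 week was just below control at 1 week, and KO at 3 weeks was above every other library. The fall with age in control was -2.11 ± 0.031 (adjusted p = 1.6e-55), and the change in KO was 0.48 ± 0.029. The latter was 0.05 (adjusted p = 0.133) on total counts and -0.23 when scaled to cardiomyocyte markers, while the gap between KO and control at 3 weeks kept its direction and call under every alternative run.

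For Ankrd1 the KO effect differed between the ages more than for any other of these genes. It was -0.15 ± 0.029 at 1 week (adjusted p = 2.2e-05) and 2.44 ± 0.031 at 3 weeks (adjusted p = 1.1e-57), and the difference was 2.59 ± 0.042 (adjusted p = 5.2e-52). The small fall at 1 week was -0.05 (adjusted p = 0.21) on total counts and -0.04 (adjusted p = 0.541) on cardiomyocyte markers. The mean over both ages, 1.15 ± 0.021, therefore describes neither age, and when KO and age were fitted additively its adjusted p was 0.207.

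Xirp2 (ENSMUSG00000027022, chromosome 2, 67446002 to 67526614, plus strand) changed far more with age than with KO. Control was at 60.4 and 56.4 CPM at 1 week and at 181 and 187 CPM at 3 weeks. KO was at 56.7 and 60 CPM at 1 week, within the control range, and at 204 and 208 CPM at 3 weeks, just above it. It rose with age by 1.66 ± 0.039 in control and by 1.82 ± 0.038 in KO. Under the alternatives run, these rises were 0.73 to 1.71 and 1.11 to 1.86. The KO effect was 0.00 ± 0.042 at 1 week (adjusted p = 0.98) and 0.16 ± 0.036 at 3 weeks (adjusted p = 0.000114). The difference between these effects, 0.16 ± 0.055 (adjusted p = 0.0171), lost its call in DESeq2 (adjusted p = 0.102), without the filter on low counts (0.12, adjusted p = 0.111) and when any of 3 libraries was left out: control replicate 1 at 1 week (0.11), KO replicate 1 at 1 week (0.11) or KO replicate 2 at 3 weeks (0.15).

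**Figure D4:**
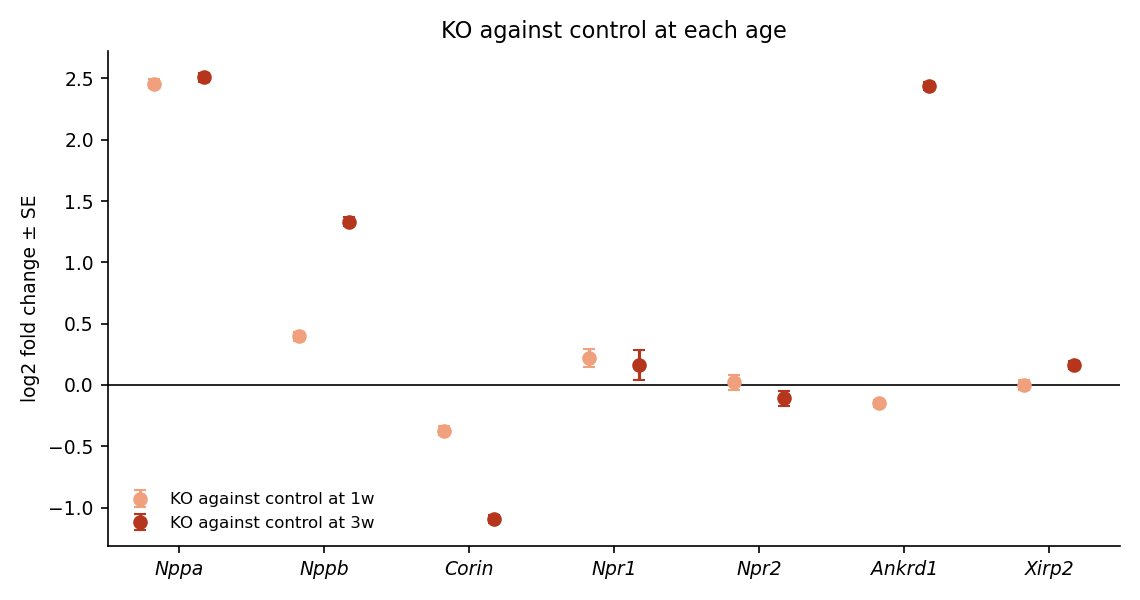
Log2 fold change of KO against control, with SE, for the 7 measured genes at 1 week and at 3 weeks. Nppa lies at 2.46 and 2.51, Ankrd1 at -0.15 and 2.44, Nppb at 0.40 and 1.33, Corin at -0.38 and -1.09, and Npr1, Npr2 and Xirp2 lie between -0.11 and 0.22.

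The promoters of the peptide genes and of Ankrd1 are shown because these 3 genes had the largest rises in KO at 3 weeks. The stretches are RefSeq's for GRCm38.p6, 5′ to 3′, and capitals mark matches on either strand to the motifs searched, which did not overlap each other. The M-CAT element of TEAD factors was searched as CATTCC. For GATA factors the letters AGATAA were searched, and in a second form TGATAA. The T-box motif was searched as GGTGTGA, the Nkx2-5 motif as CAAGTG, and the CArG box of serum response factor by its consensus. Positions count from RefSeq's transcription start, and for Nppb and Ankrd1 only windows of 30 bases around the M-CAT and GATA matches are given. In the GENCODE annotation Nppb and Ankrd1 begin further upstream, so their stretches shown lie inside the gene spans given above. The Nppa stretch ends just before its span. Nppa, chr4:148000472-148000721, plus strand, positions -250 to -1:
Nppa: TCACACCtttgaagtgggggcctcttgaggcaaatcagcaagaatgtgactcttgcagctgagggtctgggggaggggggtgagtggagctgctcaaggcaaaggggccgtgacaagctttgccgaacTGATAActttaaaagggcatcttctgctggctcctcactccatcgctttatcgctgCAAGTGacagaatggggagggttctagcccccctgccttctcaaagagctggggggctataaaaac
Nppb, chr4:147985793-147985822, plus strand: caGGAATGcagcTGATAAatcagAGATAAc
Ankrd1, chr19:36120037-36120066, minus strand: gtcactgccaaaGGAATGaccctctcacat
Ankrd1, chr19:36119950-36119979, minus strand: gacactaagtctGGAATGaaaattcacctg
Ankrd1, chr19:36119874-36119903, minus strand: caggctggaagaTTATCTcacccagcccta

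All 3 promoters held a GATA motif within 250 bases before the RefSeq start. It stood at -122 in Nppa, at -95 and -84 in Nppb and at -47 in Ankrd1. Of the 32851 RefSeq windows of the same length 16.6% held at least 1 of the GATA forms. CATTCC stood once in Nppb (-105) and at 2 places in Ankrd1 (-210 and -123) and was not among the letters of the Nppa window, with 12.6% of all windows holding it. GGTGTGA was in Nppa (-250) and Ankrd1 (-76, outside the windows shown), with 3.33% of all windows, and CAAGTG was in Nppa alone of the 3 (-66), with 11.6%. No exact match to the CArG consensus was found in the 3 windows, and 1.47% of all windows held one. Near matches to it, such as ctttaaaagg in the Nppa stretch, were not searched, so a site for serum response factor is not excluded. Of the 9 genes 8 had a window in the RefSeq table, all but Xirp1. Xirp2 held GGTGTGA (-228), and 2 windows of Ankrd23 held AGATAA (-216) and CATTCC (-120), while Corin, Npr1 and Npr2 held none of these letters.

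Counted over the 7 genes that passed the filter, 3 were higher and 2 lower in KO at 1 week, beside 43% of all 14665 tested genes called (23% higher, 20% lower). At 3 weeks 4 were higher and 1 lower, beside 49.2% (24.4% and 24.8%). With age all 7 changed in control, 4 up and 3 down, beside 70.8% (34.9% and 36%), and all 7 in KO, 6 up and 1 down, beside 67.9% (33.2% and 34.6%). For the age effect averaged over control and KO 4 were up and 2 down, beside 76.8% (37.4% and 39.4%). The difference between the KO effects passed for 4 genes, 3 up and 1 down, beside 35.6% (17.6% and 17.9%). Their mean passed for 6, 5 up and 1 down, beside 52.8% (27.5% and 25.3%). These shares are so high over all genes that the counts set the 7 genes little apart. Their sizes differed more: the median absolute log2 fold change at 3 weeks was 1.09 for the 7 genes and 0.29 for all genes tested, and at 1 week it was 0.22 for both. The 7 genes were split at 3 weeks, with Nppa, Nppb, Corin and Ankrd1 above 0.29 in size and Npr1, Npr2 and Xirp2 below it. Scaling moves the background: the median of all genes at 3 weeks against 1 week in control was -0.03 as fitted, -0.60 on total counts and -0.95 on cardiomyocyte markers, and in KO -0.02, -0.45 and -0.73. For KO against control it was 0.02, 0.12 and 0.14 at 1 week and 0.01, 0.25 and 0.34 at 3 weeks. Of the calls, 53.5% were higher at 1 week as fitted and 73.7% and 76.7% under these scalings, and 49.6%, 84.1% and 90% at 3 weeks. With age 49.2%, 16.6% and 7.73% were higher in control, and 49%, 18.5% and 8.73% in KO.

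Levels of different genes were compared per length. Per kilobase of free exon, Ankrd1 led in control at 1 week with 252 CPM per kilobase, followed by Nppb (129.9) and Nppa (129.3), Corin (24.5), Xirp2 (19.1), Npr2 (7.92) and Npr1 (4.47). In control at 3 weeks Nppa led with 385, Nppb had 95.6 and Corin 88.6, and Xirp2 (60.1) and Ankrd1 (58.5) overlapped. In KO at 1 week Nppa had 711, Ankrd1 228 and Nppb 171, with Xirp2 and Corin overlapping at 19.0 and 18.8. In KO at 3 weeks Nppa had 2193, Ankrd1 317 and Nppb 242. The receptors were lowest in all 4 groups, and the libraries of other neighbours in these orders did not overlap. Nppb and Nppa in control at 1 week were nearly level, with the lower Nppb library at 129.375 and the higher Nppa library at 129.359. Dividing by all exon bases leaves Nppa at 39.8 CPM per kilobase in control at 1 week, well under Nppb at 129.9, and puts Ankrd1 (228) above Nppa (219) in KO at 1 week. Nppa at 3 weeks is then at 118 in control and 675 in KO. The 2 overlaps also depend on this choice. By all exon bases Xirp2 (15.4) is well under Ankrd1 (58.5) in control at 3 weeks. In KO at 1 week it (4.87) is well under Corin (12.8).

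Cells other than ventricular muscle also hold these transcripts, and fewer cells of a type cannot be told apart from less RNA per cell in these libraries. The 8 atrial markers summed to 54.5 and 55.3 CPM in control at 1 week and 479.7 and 483 CPM in KO at 1 week, with 7 of 8 higher. At 3 weeks they summed to 147 and 147 CPM in control and 68 and 69.7 CPM in KO, with 2 higher and 6 lower. Myl7, the atrial light chain, moved by 3.56 ± 0.063 at 1 week and by -2.89 ± 0.12 at 3 weeks. Nppa thus rose in KO by 2.51 at 3 weeks, where most atrial markers were lower, and by 2.46 at 1 week, where they were higher.

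**Figure D5:**
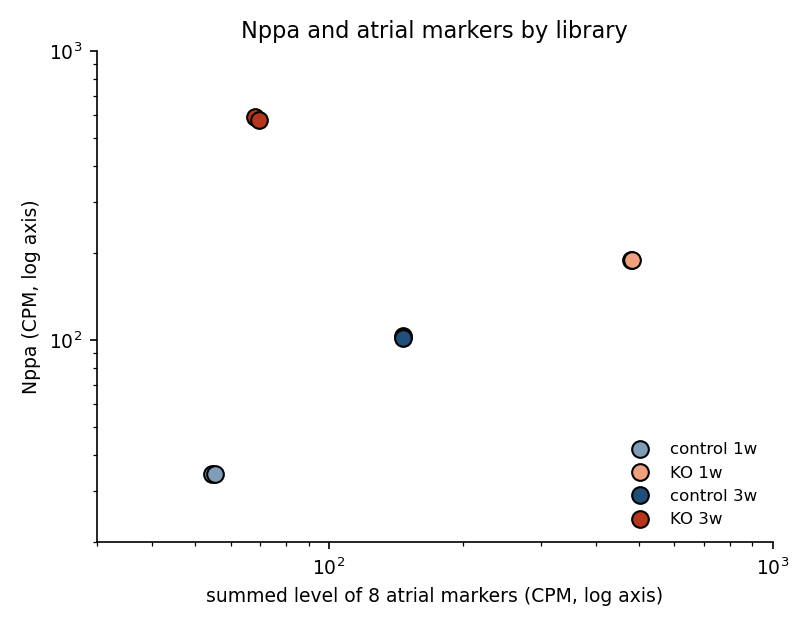
Nppa level against the summed level of 8 atrial markers in each of the 8 libraries, both in CPM on log axes. KO at 3 weeks combines the highest Nppa (577 and 590.1 CPM) with atrial markers at 68 and 69.7 CPM, while KO at 1 week has atrial markers at 479.7 and 483 CPM. Kcnj3 and Kcna5 are the largest parts of the sum in KO at 3 weeks.

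Of the other cell types, the 7 endothelial and endocardial markers summed to 737 to 752 CPM in control and 850 to 856 CPM in KO at 1 week, and to 258 to 265 and 327 to 333 CPM at 3 weeks. The 7 fibroblast markers, of which Tcf21 was listed at 0, went from 1014 to 1021 in control to 1870 to 1899 CPM in KO at 1 week, and from 265 to 266 to 571 to 579 CPM at 3 weeks. Smooth muscle and pericyte markers were at 282 to 295 and 283 to 287 CPM at 1 week and at 96.5 to 96.9 and 229 to 231 CPM at 3 weeks. Macrophage markers were at 28.7 to 29.2 and 95.5 to 99.4 CPM at 1 week and at 47.4 to 48.5 and 72.6 CPM at 3 weeks, and epicardial markers at 23 to 24.1 and 38.3 to 39.2 CPM at 1 week and at 20 to 20.6 and 11.6 to 12.3 CPM at 3 weeks. Ventricular markers summed to 39915 to 40968 CPM in control and 37245 to 37558 CPM in KO at 1 week, and to 75396 to 79358 and 60874 to 61815 CPM at 3 weeks. Their part in the results was not tested. When library sizes were set by the ventricular markers, Nppa, Nppb and Corin kept their directions and calls in KO at both ages.

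The pathway lists below are counted as fitted, and then on total counts and on cardiomyocyte markers, since both scalings add to every KO effect alike. At 1 week 32.6% of all tested genes were called higher and 11.7% lower on total counts, and 33.4% and 10.1% on cardiomyocyte markers. At 3 weeks the shares were 47.1% and 8.89%, and 55.6% and 6.21%, and the counts on the lists under these scalings are to be read against them. Enzymes that process or degrade the peptides formed a list of 5. At 1 week 3 were higher in KO and 1 lower, and at 3 weeks 1 was higher and 2 lower. Pcsk6, a convertase that activates corin, was higher in KO at both ages, where Corin was lower. It went from 15.1 ± 0.052 (SD, n = 2) to 21.8 ± 1.2 CPM at 1 week (0.53 ± 0.073) and from 3.75 ± 0.55 to 9.67 ± 0.21 CPM at 3 weeks (1.39 ± 0.11). Ide, insulin-degrading enzyme, which also cleaves atrial natriuretic peptide, was lower at both ages (-0.50 ± 0.037 and -0.27 ± 0.038). Mme, which encodes neprilysin, the main degrading peptidase, was higher at 1 week (0.79 ± 0.13) and at 0.02 ± 0.094 at 3 weeks. The peptidase gene Dpp4 rose at 1 week (1.12 ± 0.14), from 2.70 ± 0.014 to 5.84 ± 0.66 CPM. Furin fell at 3 weeks by 0.28 ± 0.037. At 3 weeks Furin and Ide lost their calls on total counts (-0.03 and -0.02), and on cardiomyocyte markers they were at 0.05 and 0.06. Mme at 3 weeks passed under both (0.27, adjusted p = 0.0126, and 0.35, adjusted p = 0.00147). The list thus stood at 2 higher and none lower at 3 weeks under either scaling, and at 4 higher and 1 lower at 1 week.

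Downstream of the receptors, 9 of 10 cyclic GMP genes were tested, Pde2a being at 0. At 1 week 4 were higher and 2 lower in KO (median 0.23, beside 0.02 over all genes), and at 3 weeks 5 were higher and none lower (median 0.91, beside 0.01). The subunits of soluble guanylyl cyclase, the nitric oxide receptor, rose at 3 weeks, Gucy1b1 by 1.71 ± 0.14 and Gucy1a1 by 1.34 ± 0.13. Vasp, an actin regulator and a substrate of cyclic GMP-dependent kinase, rose from 7.52 ± 0.71 to 24.6 ± 0.89 CPM at 3 weeks (1.73 ± 0.075) and by 0.17 ± 0.048 at 1 week. The phosphodiesterase gene Pde9a rose at both ages, by 0.81 ± 0.16 and 0.90 ± 0.20. The other calls were Pde5a, higher at 3 weeks, and Prkg1 and Pde3a, lower at 1 week (Pde3a -0.52 ± 0.038). On total counts 7 were higher at 3 weeks and on cardiomyocyte markers 8, and at 1 week 4 were higher and 1 lower under either. Smooth muscle and pericyte markers, given above, were also higher in KO at 3 weeks.

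Of 18 transcription regulators that act on the peptide genes, 17 were tested and Srf was at 0. At 1 week 12 were lower in KO and 1, Tbx5, higher (median -0.21). At 3 weeks 6 were higher and 6 lower (median 0.06). Gata6 fell at both ages (-0.71 ± 0.040 and -0.49 ± 0.041), and Tbx5, a T-box activator of Nppa, fell from 49.8 ± 0.96 to 24 ± 0.13 CPM at 3 weeks (-1.05 ± 0.055) after a value of 0.21 ± 0.059 at 1 week. Hand2 was lower at 1 week (-1.29 ± 0.21), at 0.957 ± 0.044 CPM in KO, and Nfatc4 higher at 3 weeks (1.14 ± 0.25), both at low counted levels. Of its exon bases Hand2 keeps only 17% outside other genes, and Nfatc4 keeps 100%. On total counts 2 of the list were higher and 8 lower at 1 week, and 9 higher and 3 lower at 3 weeks. On cardiomyocyte markers the split was 2 to 7 and 10 to 2.

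The genes around the Nppa and Nppb pair did not share the size of its change. Of 9 neighbours on chromosome 4, 8 were tested. At 1 week 4 were higher and 1 lower. The collagen-modifying enzyme gene Plod1 was at 0.36 ± 0.036 and Mad2l2, a DNA repair gene, at 0.29 ± 0.12. The chloride transporter gene Clcn6 was also higher, and the mitochondrial fusion gene Mfn2 was the lower one (-0.22 ± 0.028). At 3 weeks Agtrap alone of the 8 was called (0.16 ± 0.052), while Miip was lower in the mean over both ages (-0.19 ± 0.071). On total counts 6 were higher at 3 weeks and on cardiomyocyte markers 7, and at 1 week 5 were higher and 1 lower under either.

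Among partners of Ankrd1 and its relatives at titin, the Z-disc and the I-band, 17 of 18 were tested. The relative Ankrd2 had 23 counts over the 8 libraries and was not tested. At 1 week 10 were lower in KO and 2 higher (median -0.15), and at 3 weeks 14 were lower and 1 higher (median -0.25). Tcap, the titin cap, fell by 0.15 ± 0.041 at 1 week and 1.24 ± 0.037 at 3 weeks, and the ubiquitin ligase gene Trim63 by 0.42 ± 0.034 and 0.81 ± 0.033. Capn3, a muscle calpain bound to titin, was lower at 1 week (-1.32 ± 0.23), going from 2.07 ± 0.034 down to 0.836 ± 0.17 CPM, and Des, the intermediate filament gene desmin, was the other gene higher at 1 week. The exception at 3 weeks was Fhl1, a titin-binding LIM protein, higher at both ages (0.37 ± 0.040 and 0.63 ± 0.039). The count of lower genes at 3 weeks rests on the scaling: on total counts 5 were lower and 4 higher, and on cardiomyocyte markers 3 were lower and 7 higher. At 1 week 8 were lower and 4 higher under either, and Tcap at 1 week lost its call (-0.05 and -0.04).

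Partners of the Xin proteins at the intercalated disc numbered 11. At 1 week 8 were lower and 2 higher in KO, and at 3 weeks 3 were lower and 6 higher. The cadherin gene Cdh2 fell at 1 week (-0.74 ± 0.032) and was at -0.07 ± 0.032 at 3 weeks. Gja1, the main ventricular connexin, fell at both ages (-0.64 ± 0.031 and -0.30 ± 0.031), as did the cross-linker Actn2 (-0.21 ± 0.025 and -0.29 ± 0.025). Enah, an actin elongation factor, rose at both (0.21 ± 0.035 and 0.34 ± 0.035), as did the filamin gene Flnc. The third lower gene at 3 weeks was Pkp2, of the desmosome. On total counts none was lower and 8 were higher at 3 weeks, and on cardiomyocyte markers none and 9, with Gja1 at -0.05 and 0.04 and Actn2 at -0.04 and 0.04. At 1 week 6 were lower and 3 higher, and 5 and 3.

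Most other genes of wall stress rose in KO. Of 11, 9 were tested, with Acta1 and Timp1 at 0. At 1 week 7 were higher and 1 lower (median 0.90), and at 3 weeks 8 were higher and 1 lower (median 0.97). Gdf15, a stress cytokine, rose from 0.732 ± 0.086 to 2.09 ± 0.068 CPM at 1 week and from 0.461 ± 0.15 to 9.39 ± 0.36 CPM at 3 weeks (4.40 ± 0.20). The matricellular gene Postn rose by 0.90 ± 0.034 and 1.86 ± 0.052. Spp1, osteopontin, had 1 to 5 counts in control libraries and 20 to 78 in KO. The lower gene was Myh7, the fetal myosin chain usually grouped with Nppa (-0.11 ± 0.038 and -0.49 ± 0.039), which lost its call at 1 week on total counts (-0.01) and on cardiomyocyte markers (0.00). Of its exon bases Myh7 keeps only 24.7% outside other genes. The counts of the other genes were 8 higher at each age under both scalings. Summed markers of fibroblasts, macrophages and endothelial cells, given above, were also higher in KO at both ages. Those of smooth muscle and pericytes were higher at 3 weeks, and those of ventricular muscle were lower at both ages. Whether these cells bear on the counts was not tested.

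Ankrd1 is also a known target of the YAP and TEAD factors. Of 12 such genes 11 were tested: 5 were higher and 2 lower in KO at 1 week, and 6 higher and 1 lower at 3 weeks. The targets Ccn2 and Ccn1 had the reverse of the age pattern of Ankrd1, with KO effects of 2.18 ± 0.044 and 1.54 ± 0.042 at 1 week and of 0.33 ± 0.040 and 0.71 ± 0.035 at 3 weeks. The difference between the ages was -1.85 ± 0.060 for Ccn2 and -0.82 ± 0.055 for Ccn1, against 2.59 ± 0.042 for Ankrd1. The receptor kinase gene Axl rose at both ages (0.88 ± 0.050 and 0.96 ± 0.061, a difference of 0.09 ± 0.080 with adjusted p = 0.419), and Ajuba by 0.35 ± 0.10 and 0.56 ± 0.14. Of the factors themselves, Tead1 was lower at both (-0.43 ± 0.033 and -0.17 ± 0.033) and Yap1 lower at 1 week (-0.12 ± 0.045) and higher at 3 weeks (0.27 ± 0.044). The remaining called genes were Amotl2, higher at 1 week, and Crim1, higher at 3 weeks. On total counts 10 were higher and none lower at 3 weeks, and on cardiomyocyte markers all 11, with Tead1 at 0.08 and 0.16. At 1 week 5 were higher and 1 lower under either, Yap1 having lost its call. Lats2 had 10 counts in all and 3% of its exon bases free.

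Over the 8 libraries, which form only 4 groups, the genes whose log2 level ran most like Nppa were P4hb (Pearson r 0.996), Uck2 (0.992) and Rasl11b (0.984), out of 6856 others with a mean of at least 10 CPM. Their range was far smaller: P4hb went from 179 CPM in control at 1 week to 238 CPM in KO at 3 weeks. Nearest to Nppb were Itga9 (0.973), Dab2ip (0.971) and Extl3 (0.971), and nearest to Ankrd1 were Arhgap35 (0.991), Tjp1 (0.988) and Wwc2 (0.988). Tjp1, a junction scaffold on the Xin partner list, went from 105 to 82.7 CPM with age in control and from 107 to 113 CPM in KO. Within the set itself Nppb ran nearest to Ankrd1 (r = 0.834) and Nppa to Nppb (r = 0.756).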

How the data were processed

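The submitters' processing notes name FastQC, MultiQC, HISAT2, featureCounts and DESeq2 and the build mm10, with no role stated. The counting mode, strand setting or annotation is not given in the sources used here. The authors deposited raw counts per gene for 8 libraries, made with SMART and NEXTERA XT kits per the labels' protocols. Symbols, coordinates and overlaps came from GENCODE M21 (54723 of 54752 IDs matched).

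Genes were kept by filterByExpr (minimum count 10, minimum total 15), leaving 14665. Library sizes were scaled by TMM (factors 0.759 to 1.23), which the CPM values use. One edgeR 4.0.16 robust quasi-likelihood fit of 4 groups (R 4.3.3, 4 residual degrees of freedom) gave all comparisons, and the mean KO effect is the mean of its 2 KO contrasts. Calls are at a Benjamini-Hochberg adjusted p under 0.05 over the whole table of tested genes. SE values derive from the F statistic. The procedure was tested on simulated data. The 2 libraries of a group differ by more than counting noise. Their labelled injection days increase from library to library within and across the ages, which leaves their meaning uncertain, and no label says that each library is a separate animal. Therefore p-values measure the spread between libraries, which may be technical. Comparisons share libraries. The genes and lists were chosen with earlier results of these data known. Named genes are the 9, up to 4 called genes per list with the largest mean KO effect, any list gene on which a count of 5 or fewer falls, and the 3 genes most correlated with Nppa, Nppb and Ankrd1. Myl7, Bmp10, Kcnj3, Kcna5 and the genes named as not counted or not tested were chosen after their values were seen. Alternatives were DESeq2 1.42.0, other scalings, no filter, other models, a replicate block and leaving out each library. Scaling to cardiomyocyte markers, the block by injection day, and recounting the pathway lists under both scalings, were chosen after seeing the data. One gene that the rule names is not reported here.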

Additional observations from a re-analysis of the deposited data

Results flagged for a closer look

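For 4 genes the KO effect differed between 1 and 3 weeks when the difference itself was tested (edgeR, quasi-likelihood, adjusted over all genes). The log2 KO effect at 3 weeks less that at 1 week was 2.59 for Ankrd1, 0.94 for Nppb, -0.72 for Corin and 0.16 for Xirp2. Y-linked transcripts differ between KO and control in opposite directions at these ages, so neither can be told apart from the other here. For Nppa, Npr1 and Npr2 the difference did not pass.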

How the results depend on the processing

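Of 693 single-gene values under the alternatives, 636 kept direction and side of the threshold, 27 lost a call, 5 gained one and 25 changed sign. In KO against control, Nppa, Nppb and Corin kept direction and call at each age under every alternative run, and Ankrd1 at 3 weeks. The count of called genes left the 1.5-fold range in 2 cases: 4 in place of 7 for age in KO on total counts, and 3 in place of 6 for the mean KO effect in an additive fit. Sign changes on total counts were, for Npr2, 0.14 in KO at 3 weeks, -0.12 and -0.10 with age in control and KO, 0.018 for the difference between the KO effects and 0.13 for their mean, and for Npr1 0.090 for that difference. Scaled to cardiomyocyte markers they were 0.22, -0.48, -0.39, 0.086 and 0.18 for Npr2 and 0.16 for Npr1, and with age in KO -0.23 for Ankrd1 and -0.21 for Nppb. Leaving out single libraries, the Npr1 difference ranged from -0.16 to 0.047 (without KO replicate 1 at 1 week), Npr2 at 1 week from -0.014 (without control replicate 2 at 1 week) to 0.050, and Xirp2 at 1 week from -0.050 to 0.045. Xirp2 at 1 week was -0.0064 with RLE factors, -0.0067 in DESeq2 and -0.0083 in a fit of only the 2 groups. The mean KO effects of Npr1 and Xirp2 each lost their call under 7 alternatives. DESeq2 called 4043 genes in place of 6305 at 1 week and 3351 in place of 5215 for the difference, and the additive fit 4506 in place of 7746. No cause was tested. Same-numbered libraries did not deviate together (r between -0.0222 and 0.00825), while within an age they share a labelled injection day as well as a number. With the replicate number as a block, the genes called of 7 were 5 and 5 for KO at 1 and 3 weeks, 7 and 7 for age in control and KO, 4 for the difference between the KO effects, 6 for their mean and 6 for the averaged age effect, as without it. With the replicate block by injection day within age, added after seeing the data, the KO counts were again 5, 5, 4 and 6, and no call of the 7 genes changed in the KO comparisons. Npr1 had the fewest counts of the 7 genes, 137 to 943 a library.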
